A study of Mus musculus with 18 samples.

Results

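The comparison described here sets mouse embryonic hearts of E16.5 against those of E14.5, across all genes, where E stands for days of embryonic development. Its members are the 4 E16.5 and the 3 E14.5 RNA-seq libraries, taken by the age label, 7 of the 18 libraries of a series with 5 ages that starts at E9.5. Both groups are wild-type hearts of the C57BL/6 strain, an inbred laboratory line, with no treatment labelled, so age is the one labelled difference between them. Each library is labelled as a pool of male and female embryos, and how many hearts went into a pool is not given in the sources used here. The series title names cardiomyocyte proliferation and the mevalonate pathway as its subject. Replicates carry a number but no litter or dissection day, so the p-values below measure the spread between libraries, part of which may be technical.

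Between these ages the mouse heart has finished dividing into 4 chambers, and its remaining work is growth of the compact wall, thinning of the valves, spread of the coronary vessels and maturation of the muscle cells. Fetal cardiomyocytes divide while they beat, rely largely on glucose and lactate, and use a set of contractile isoforms that the adult heart replaces. Towards birth they fill with mitochondria, begin to burn fatty acids, and extend the sarcomere, T-tubule and calcium stores. Glucocorticoid and thyroid hormones, which rise late in gestation, and nuclear receptors of the ERR and PPAR families are known to drive parts of that programme.

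The E14.5 libraries held 30744015 to 42298365 counts and the E16.5 libraries 32550626 to 34109851. Counts of mitochondrially encoded genes made up 3.84 to 4.91% of an E14.5 library and 4.65 to 6.44% of an E16.5 library. Levels are given as CPM, the counts of a gene per 1000000 counts of the scaled library. The heart muscle label held in both groups: 10 cardiomyocyte markers summed to 28077 to 31264 CPM at E14.5 and 39499 to 45449 CPM at E16.5. Markers of neighbouring tissues were low, with the lung epithelial list summing to 4.29 to 9.67 CPM (5 of 11 markers passed the filter on low counts) and the liver list to 11.4 to 23.2 CPM (5 of 9 passed) over the 7 libraries. In bulk tissue a lower level can come from fewer cells of a type or from less RNA per cell, and these cannot be told apart here.

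Of 18885 genes tested, 3562 (18.9%) differed between the ages at an adjusted p below 0.05 (edgeR quasi-likelihood test, Benjamini-Hochberg adjustment over all genes). Higher at E16.5 were 1911 genes (10.1%), and lower were 1651 (8.74%). A change of at least 2-fold was seen in 645 genes (3.42%), 350 higher and 295 lower. The median log2 fold change of all genes was -0.02. Scaling by library totals alone moved that median by -0.13 and turned the split into 1222 higher and 3776 lower, so the balance of rises and falls depends on the scaling. Replicate 3 of E14.5 was the E14.5 library nearest to the E16.5 mean in 65.8% of the genes called, against 17.4% and 16.8% for replicates 1 and 2. Leaving out E14.5 replicate 1 left 1233 genes higher and 825 lower, and leaving out E14.5 replicate 2 left 1213 and 1012. Unless a lost call is given beside it, each gene said below to rise or fall stayed past the threshold in those of the 18 alternative analyses that tested it. In 3270 of the genes called the libraries of the ages did not overlap. This also holds for each gene called below whose 7 values are printed, with Acat2 as the exception.

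**Figure D1:**
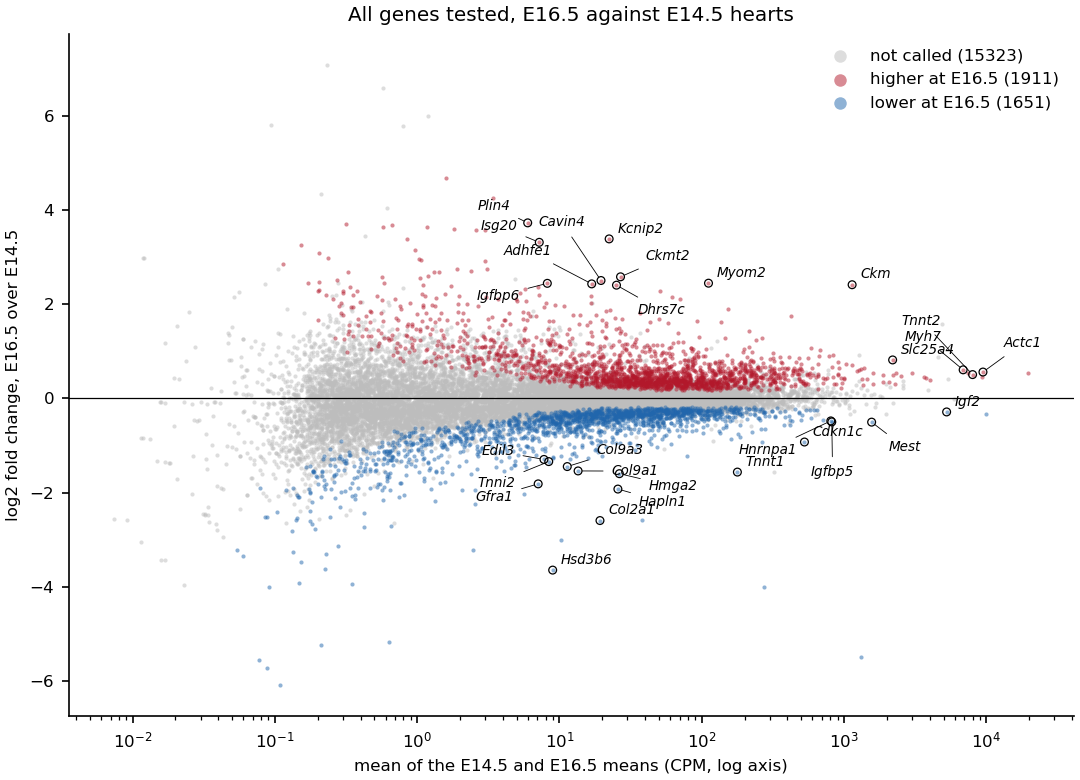
Log2 fold change of each gene tested (vertical axis, E16.5 over E14.5) against the mean of the 2 stage means (horizontal log axis, CPM). Grey points were not called, red points were higher and blue points lower at E16.5, and circles mark the genes with the largest fold changes or the largest differences in CPM; 1911 red points face 1651 blue ones.

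By fold change, the genes taken up here are the largest rises among called genes with a mean of at least 10 CPM at E16.5 and no overlap between the ages, leaving aside mitochondrially encoded, ribosomal protein, haemoglobin, predicted and non-coding genes. Kcnip2 encodes KChIP2, the subunit that brings the transient outward potassium channel to the surface. Its level was 2.37, 3.06 and 6.38 CPM at E14.5 and 53.1, 31.5, 34.4 and 43.9 CPM at E16.5, so the lowest E16.5 library stood well above the highest E14.5 library (log2 fold change 3.39 ± 0.38 (SE), adjusted p = 2.25e-05). Ckmt2, the mitochondrial creatine kinase of striated muscle, stood at 7.11, 7.69 and 8.28 CPM at E14.5 and 48.9, 40.8, 46.6 and 47.7 CPM at E16.5, with tight replicates on both sides (log2 fold change 2.58 ± 0.11 (SE), adjusted p = 5.92e-11). Plin4, a lipid droplet coat protein, rose from 0.839 ± 0.115 CPM (SD, n = 3) to 11.1 ± 4.401 CPM (SD, n = 4). Cavin4, a caveolar protein of muscle, rose from 5.90 ± 2.57 CPM (SD, n = 3) to 33.3 ± 3.38 CPM (SD, n = 4), and Dhrs7c, an enzyme of the sarcoplasmic reticulum, rose from 8.02 ± 2.80 CPM (SD, n = 3) to 42.3 ± 1.93 CPM (SD, n = 4). Adhfe1, a mitochondrial alcohol dehydrogenase, went from 5.28 ± 1.38 CPM (SD, n = 3) to 28.4 ± 3.46 CPM (SD, n = 4). Isg20, an exonuclease, and Igfbp6, a binding protein for insulin-like growth factors, rose by 3.31 and 2.44 on the log2 scale.

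By difference in CPM, and with the same kinds of gene left aside, the 5 largest gains were those of Actc1, Myh7, Tnnt2, Ckm and Slc25a4. Actc1, the cardiac alpha-actin of the thin filament, was counted at 7436, 7435 and 8089 CPM at E14.5 and 10904, 11714, 10249 and 12274 CPM at E16.5 (log2 fold change 0.56 ± 0.08 (SE), adjusted p = 4.87e-05). Tnnt2, cardiac troponin T, rose from 6615 ± 685 CPM (SD, n = 3) to 9395 ± 459 CPM (SD, n = 4). Myh7, the slow myosin heavy chain that dominates the fetal ventricle, stood at 5261, 5973 and 5105 CPM at E14.5 and 8816, 10785, 7221 and 6367 CPM at E16.5, and its E16.5 libraries were more scattered than its E14.5 libraries (log2 fold change 0.61 ± 0.14 (SE), adjusted p = 0.00551). Slc25a4, the ADP/ATP carrier of the inner mitochondrial membrane, rose from 1589 ± 214 CPM (SD, n = 3) to 2801 ± 318 CPM (SD, n = 4), and Ckm, the cytosolic muscle creatine kinase, rose from 360.2 ± 128 CPM (SD, n = 3) to 1919 ± 247 CPM (SD, n = 4).

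The sarcomere list moved in one direction. Of 27 core sarcomere genes tested, 18 were higher, none was lower and 9 were not called, with a median log2 fold change of 0.48, where 10.1% of all genes were higher. Myom2, the M-band protein of adult-type fast sarcomeres, was at 32.4, 30.7 and 40.8 CPM at E14.5 and 230.1, 168, 183 and 173 CPM at E16.5 (log2 fold change 2.45 ± 0.20 (SE), adjusted p = 7.51e-07). Tnni3, the cardiac troponin I that replaces the slow form around birth, was at 480.0, 561 and 603 CPM at E14.5 and 1098, 951, 929.7 and 1126 CPM at E16.5 (log2 fold change 0.90 ± 0.12 (SE), adjusted p = 3.38e-05). Csrp3, the muscle LIM protein of the Z-disc, rose by 0.67 ± 0.08 (SE) on the log2 scale, and Actn2, the Z-disc alpha-actinin, by 0.58 ± 0.10. Myh6, the fast myosin that replaces Myh7 after birth in the mouse, did not pass the test at 2239 ± 509.8 CPM at E14.5 and 2912 ± 443 CPM at E16.5 (log2 fold change 0.38 ± 0.16, adjusted p = 0.105), although DESeq2 called it (adjusted p = 0.0462) and so did the fit without E14.5 replicate 2 (adjusted p = 0.0358).

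Isoforms of the early heart and of other muscles went in both directions: of 15 tested, 5 were higher and 4 lower. Tnnt1, the slow skeletal troponin T, had the largest fall of the group, from 261, 279.7 and 258 CPM at E14.5 to 88.4, 66.8, 108 and 96.9 CPM at E16.5 (log2 fold change -1.56 ± 0.12 (SE), adjusted p = 1.03e-07). Cnn1, a calponin of smooth muscle that the early myocardium also carries, stood at 230.3, 229 and 218 CPM at E14.5 and 130.3, 126, 132 and 145 CPM at E16.5 and fell by 1.69-fold with an adjusted p of 2.47e-07. Acta1, skeletal alpha-actin, and Tagln, a smooth muscle protein, fell, with log2 fold changes of -0.62 and -0.79. Tnni2, fast skeletal troponin I, from a list of skeletal muscle markers of which 3 of 10 tested were lower (1 without E14.5 replicate 1 or 2) and 1 higher, was at 11.1, 12.7 and 12.4 CPM at E14.5 and 4.80, 4.79, 4.78 and 4.66 CPM at E16.5. Tnni1, the slow skeletal troponin I that is the main fetal form in heart, rose from 1548 ± 179 CPM (SD, n = 3) to 2196 ± 225 CPM (SD, n = 4) together with Tnni3. The 5 rises of the early isoform list became 2 without E14.5 replicate 1, E14.5 replicate 2 or E16.5 replicate 4, 2 with library totals alone, and 3 without E14.5 replicate 3.

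Promoter sequence is shown for a sarcomere pair because its windows hold known muscle motifs close to the start site. RefSeq promoter windows (250 bases before to 50 after the start site, GRCm38.p6) were found for 21 of the 27 genes, 30 windows in all. The CArG box, the serum response factor motif, was in 20% of those windows, against 1.63% of all 32851 windows and 1.32% of the windows of genes tested. The MEF2 motif was in 16.7%, against 3.19% and 1.95%. Both motifs hold mixed bases and were read on both strands, and a match is a description of the letters, not of binding. The 250 bases before the start site of Actc1 (chr2:114052876-114053125, minus strand) and of Myoz2 (chr3:123034988-123035237, minus strand) are printed 5′ to 3′ with the match in capitals.
Actc1: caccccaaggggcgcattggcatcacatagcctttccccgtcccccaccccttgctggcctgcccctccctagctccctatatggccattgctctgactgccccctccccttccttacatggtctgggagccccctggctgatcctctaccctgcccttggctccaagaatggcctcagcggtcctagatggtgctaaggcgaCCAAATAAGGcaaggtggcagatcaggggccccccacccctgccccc
Myoz2: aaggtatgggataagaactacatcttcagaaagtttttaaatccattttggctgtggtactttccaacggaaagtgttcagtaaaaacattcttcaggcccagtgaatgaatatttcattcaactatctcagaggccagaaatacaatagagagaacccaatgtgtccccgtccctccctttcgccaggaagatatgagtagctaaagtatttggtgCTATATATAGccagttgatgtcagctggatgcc
The capitals of Actc1 are a CArG match 47 to 38 bases before the start site, and those of Myoz2 a MEF2 match 33 to 24 bases before it. Myoz2, a calcineurin-binding protein of the Z-disc chosen here for its motif, was at 132, 148 and 158 CPM at E14.5 and 235, 215, 191 and 222 CPM at E16.5 and rose by 0.56 ± 0.12 on the log2 scale (adjusted p = 0.00279). Srf, which encodes serum response factor itself, was at 189, 197 and 248 CPM at E14.5 and 279.9, 262, 269 and 347 CPM at E16.5 (log2 fold change 0.46 ± 0.11 (SE), adjusted p = 0.00494).

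Ion channel genes changed in part. Of 27 potassium, sodium and pacemaker channel genes tested, 10 were higher, none lower and 17 not called, with a median of 0.28. Abcc8 and Kcnj11 encode the sulphonylurea receptor and the pore of the ATP-sensitive potassium channel. Abcc8 was at 17.2, 22.8 and 20.8 CPM at E14.5 and 53.8, 51.5, 48.2 and 41.1 CPM at E16.5 (log2 fold change 1.26 ± 0.12 (SE), adjusted p = 6.99e-07), and Kcnj11 rose from 46.4 ± 5.95 CPM (SD, n = 3) to 74.996 ± 2.78 CPM (SD, n = 4). Kcnq1, the pore of the slow delayed rectifier, rose 2.002-fold, with 26.5, 24.3 and 33.7 CPM at E14.5 and 55.7, 55.0, 53.6 and 61.0 CPM at E16.5. Its partner Kcne1 rose by 0.54 ± 0.11 on the log2 scale. Hcn2 and Hcn4, which carry the pacemaker current, were among those not called. In a list of 14 conduction system markers 4 genes were lower and 1 higher, and their sum was 1407 to 1689 CPM at E14.5 and 1135 to 1352 CPM at E16.5. Igfbp5, given below with the insulin-like growth genes, is a member of that list (log2 fold change -0.50). It supplies most of the sum and of its drop, so the sum says little about the other markers. The 4 falls became 2 without E14.5 replicate 1, E14.5 replicate 2 or E16.5 replicate 2.

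Of 20 genes of the dystrophin complex, costamere and T-tubule, 11 were higher and none lower (median 0.38). Itga7, the laminin receptor of muscle, was at 4.67, 6.53 and 7.91 CPM at E14.5 and 21.6, 24.7, 17.6 and 22.6 CPM at E16.5 (log2 fold change 1.77 ± 0.22 (SE), adjusted p = 1.52e-05). Popdc2, a cyclic AMP-binding membrane protein, rose by 0.61 on the log2 scale. At the intercalated disc 6 of 20 genes were higher and 3 lower. The rises numbered 10 with DESeq2 and 10 without 5 libraries of the earlier ages that were low in activated macrophage transcripts, and the falls numbered 1 without E14.5 replicate 1 or 2 or E16.5 replicate 2. Nrap, which anchors actin at the disc, rose from 189 ± 9.47 CPM (SD, n = 3) to 298 ± 35.7 CPM (SD, n = 4), and Jup, plakoglobin, and Ctnna1, alpha-catenin, rose by 0.46 and 0.43. Dsc2, desmocollin 2, fell from 43.4 ± 7.33 CPM (SD, n = 3) to 29.7 ± 3.09 CPM (SD, n = 4). Ctnnb1, beta-catenin, was not called at 745 ± 57.3 CPM at E14.5 and 704 ± 15.9 CPM at E16.5.

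Among 25 calcium handling genes 7 were higher and 3 lower. Atp2a2, the calcium pump SERCA2 of the sarcoplasmic reticulum, was at 1839, 1914 and 1737 CPM at E14.5 and 2551, 2612, 2615 and 2604 CPM at E16.5 (log2 fold change 0.50 ± 0.08 (SE), adjusted p = 0.000156). Sln, sarcolipin, an inhibitor of that pump found mainly in atria, was at 57.2, 57.0 and 80.4 CPM at E14.5 and 271, 159, 265 and 277 CPM at E16.5, and its E16.5 replicate 2 lay below the other 3 libraries of that age. Tmem38a, a counter-ion channel of the calcium store, rose from 97.3 ± 3.28 CPM (SD, n = 3) to 169 ± 12.8 CPM (SD, n = 4). Srl, sarcalumenin, which buffers calcium there, rose by 0.44. Casq1, the skeletal calsequestrin, fell from 168 ± 21.9 CPM (SD, n = 3) to 101 ± 10.2 CPM (SD, n = 4), and Camk2a, a calcium-dependent kinase best known from brain, fell by 1.23-fold. The number of rises was 11 with DESeq2, 11 with a stricter filter on low counts (at least 10 CPM in 3 libraries) and 12 without those 5 libraries.

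Receptor signalling to the heartbeat changed in part. Of 17 adrenergic and muscarinic genes 8 were higher and 1 lower, and the lower one lost its call without E14.5 replicate 1 or 2 or any 1 of the E16.5 libraries. Chrm2, the muscarinic receptor that slows the heart, had 33.9, 30.4 and 31.4 CPM at E14.5 and 62.0, 61.6, 63.4 and 62.9 CPM at E16.5, a rise with little spread on either side (log2 fold change 0.97 ± 0.14 (SE), adjusted p = 7.41e-05). Adora1, the inhibitory adenosine receptor, rose from 25.03 ± 2.85 CPM (SD, n = 3) to 52.9 ± 4.44 CPM (SD, n = 4). Adcy5, the main adenylyl cyclase of cardiomyocytes, and Rgs2, a brake on G-protein signals, rose by 0.59 and 0.67.

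**Figure D2:**
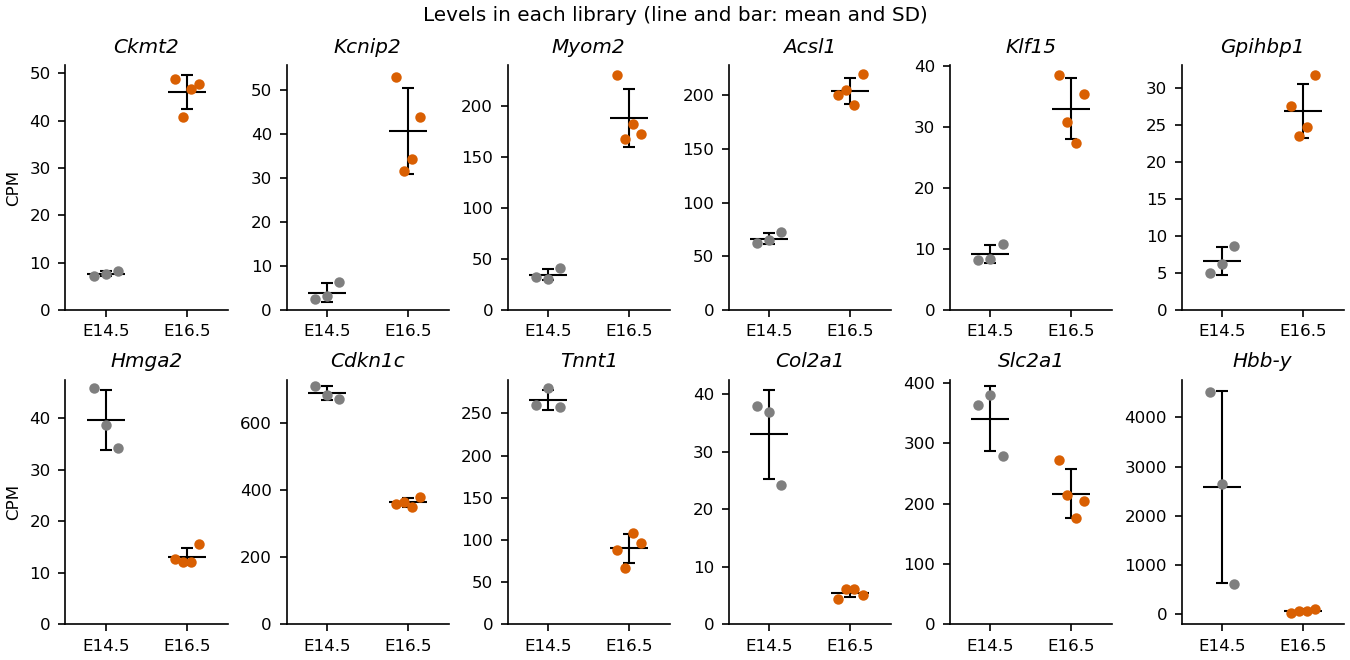
CPM of 12 genes in each library, with 3 grey points for E14.5 and 4 orange points for E16.5 in each panel; the horizontal line and bar are the mean and SD, and the vertical axes are linear. In the upper row all 4 E16.5 points lie above the E14.5 points, in the lower row all lie below them, and Hbb-y varies most between E14.5 libraries.

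Among the pathway lists, the citric acid cycle had the largest share of its members called. Of its 25 genes, pyruvate entry included, 24 were higher and none lower (median 0.53). Mdh2, malate dehydrogenase, was at 448, 449.9 and 487 CPM at E14.5 and 738, 729, 663 and 771 CPM at E16.5 (log2 fold change 0.65 ± 0.07 (SE), adjusted p = 2.61e-06). Idh2, isocitrate dehydrogenase, rose from 1299.8 ± 125 CPM (SD, n = 3) to 1886 ± 155 CPM (SD, n = 4). Pdha1, the E1 subunit of pyruvate dehydrogenase, rose by 0.61 ± 0.07 on the log2 scale. Mpc1, the pyruvate carrier of mitochondria, was at 35.9, 35.4 and 35.6 CPM at E14.5 and 68.3, 65.2, 62.0 and 76.4 CPM at E16.5, and its E14.5 libraries were almost equal. Suclg2, a succinyl-CoA ligase subunit, was the member not called, at 141 ± 4.81 CPM at E14.5 and 148 ± 4.63 CPM at E16.5.

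The nuclear genes of the respiratory chain, which pumps protons across the inner membrane and drives the ATP synthase, moved in the same direction. Of 75 tested, 61 were higher and none lower, with a median log2 fold change of 0.60. In 71 of the 75 the libraries of the 2 ages did not overlap, against 30.2% of all genes tested. By complex, 32 of 37 subunits of complex I were higher (median 0.61), as were 8 of 9 of complex III (0.73), 8 of 13 of complex IV (0.60) and 12 of 15 of complex V (0.54). Uqcrc1, a core protein of complex III, was at 367, 345 and 422 CPM at E14.5 and 635, 603, 570.1 and 696 CPM at E16.5 (log2 fold change 0.73 ± 0.08 (SE), adjusted p = 4.36e-06). Cyc1, cytochrome c1, was at 342, 376 and 480.0 CPM at E14.5 and 733, 692, 653 and 818 CPM at E16.5 (log2 fold change 0.86 ± 0.10 (SE), adjusted p = 7.69e-06). Atp5a1 of the ATP synthase rose from 1892 ± 12.7 CPM (SD, n = 3) to 2759.6 ± 134 CPM (SD, n = 4), and Atp5b, its catalytic subunit, by 0.40 ± 0.07 on the log2 scale. The count of rises ran from 42 to 64 when 1 library was left out.

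Muscle-type subunits of cytochrome oxidase had the widest changes of the chain. Cox8b was at 9.83, 21.8 and 37.1 CPM at E14.5 and 120.0, 81.5, 80.1 and 122 CPM at E16.5, and Cox6a2 at 104, 143 and 179 CPM at E14.5 and 375, 289.8, 297 and 382 CPM at E16.5. Cox8b rose by 2.15 ± 0.35 and Cox6a2 by 1.24 ± 0.18 on the log2 scale, with adjusted p values of 0.000696 and 0.000152. Cox7a1, the third muscle form, did not pass the test at 75.4 ± 31.2 CPM at E14.5 and 158 ± 33.8 CPM at E16.5 (adjusted p = 0.0547), but was called by DESeq2 (adjusted p = 0.0160), by limma-voom (adjusted p = 0.0312) and with the stricter filter (adjusted p = 0.0422). These 3 genes were picked after their values were seen.

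**Figure D3:**
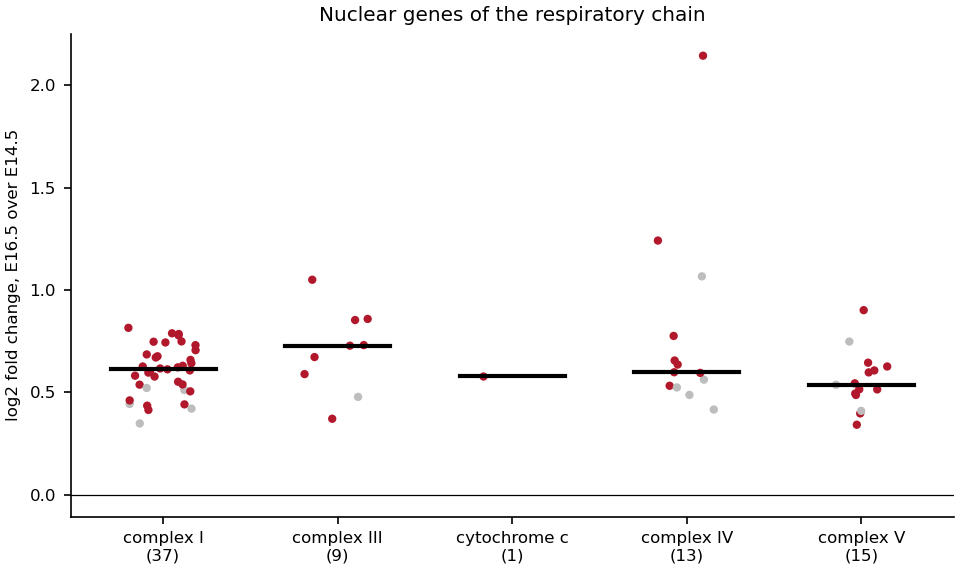
Log2 fold change (vertical axis, E16.5 over E14.5) of the 75 nuclear respiratory chain genes tested, by complex, with the number of genes in brackets. Red points were called higher, grey points were not called and black lines are medians; all 75 points lie above 0.

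Short and abundant transcripts as a class leaned the same way, so their values are set beside the respiratory chain. Among 1206 coding genes outside the list with under 2500 exon bases and over 20 CPM, 23.5% were higher and 4.56% lower, with a median of 0.14. The 54 respiratory chain genes of that size and level had 41 higher and a median of 0.62. The 84 cytosolic ribosomal protein genes had 2 higher and a median of 0.12, and of 78 mitochondrial ribosomal protein genes 35 were higher (median 0.26). What part length played was not tested.

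The promoter of cytochrome c is shown because it carries the letters of the NRF1 motif, a known regulator of respiratory genes. The 8 letters GCATGCGC, read on both strands, were in 14.7% of 68 windows of the list (63 of 75 genes matched), against 2.71% of all windows and 4.41% of the windows of genes tested. The 250 bases before the RefSeq start site of Cycs (chr6:50566570-50566819, minus strand, GRCm38.p6) have the match in capitals, 60 to 53 bases before the start.
Cycs: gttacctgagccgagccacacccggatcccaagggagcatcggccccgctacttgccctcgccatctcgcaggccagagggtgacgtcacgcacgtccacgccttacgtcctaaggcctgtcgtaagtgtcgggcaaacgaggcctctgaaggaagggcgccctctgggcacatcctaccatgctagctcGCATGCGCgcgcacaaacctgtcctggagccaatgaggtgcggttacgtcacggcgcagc
Cycs was at 336, 380.1 and 363 CPM at E14.5 and 560.3, 510.2, 499 and 585 CPM at E16.5 and rose by 0.58 ± 0.13 on the log2 scale (adjusted p = 0.00322). It has many processed pseudogenes, and reads shared with them may have been split or dropped in counting.

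Of the 13 genes of the mitochondrial genome 5 were higher and none lower. mt-Nd1, of complex I, was at 5689, 5569 and 7041 CPM at E14.5 and 8652, 7107, 9104 and 10595 CPM at E16.5 (log2 fold change 0.54 ± 0.12 (SE), adjusted p = 0.00425). mt-Nd6, which lies on the other strand, rose from 1016 ± 58.0 CPM (SD, n = 3) to 1547 ± 294 CPM (SD, n = 4), and the strand setting of the counts is not given in the sources used here. mt-Co1, of complex IV, was at 16078 ± 2272 CPM at E14.5 and 23218 ± 3394 CPM at E16.5 and lost its call without E14.5 replicate 2 (adjusted p = 0.0579). Without that library 2 of the 5 calls were left, and 8 of the 13 genes were called without the same 5 libraries of the earlier ages.

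Fatty acid handling rose as a group: 23 of 32 genes were higher and 1 was lower (median 0.54). Acsl1, which activates long-chain fatty acids, was at 62.1, 64.8 and 72.6 CPM at E14.5 and 201, 205, 191 and 220.2 CPM at E16.5 (log2 fold change 1.62 ± 0.09 (SE), adjusted p = 1.18e-09). Fabp3, the fatty acid carrier of heart cytosol, was at 322, 380.2 and 439 CPM at E14.5 and 849.8, 703, 699 and 936 CPM at E16.5 (log2 fold change 1.07 ± 0.13 (SE), adjusted p = 1.02e-05). Acadm and Acaa2, enzymes of the beta-oxidation spiral, rose from 235 ± 9.71 CPM (SD, n = 3) to 405 ± 15.3 CPM (SD, n = 4) and from 226 ± 19.6 CPM (SD, n = 3) to 410.4 ± 42.1 CPM (SD, n = 4). Crat, carnitine acetyltransferase, rose 1.98-fold. Cd36 and Lpl, which bring fatty acids to the cell, and Cpt1a were among the 8 members not called. With the 7 libraries fitted alone Cd36 and Lpl were called (adjusted p = 7.19e-05 and 0.0231), as they were without the 5 libraries of the earlier ages (adjusted p = 0.000785 and 0.00844). The member that fell, Ucp3, was at 0.497, 0.604 and 0.996 CPM at E14.5 and 0.128, 0.327, 0.278 and 0.228 CPM at E16.5, and it lost its call without E14.5 replicate 3 (adjusted p = 0.0695).

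Glucose genes split by isoform. Slc2a1, the GLUT1 transporter of fetal tissue, was at 364, 379.7 and 279 CPM at E14.5 and 272, 214, 176 and 204.4 CPM at E16.5 and fell by 1.57-fold (adjusted p = 0.000951). Slc2a4, the insulin-responsive GLUT4 of muscle, was at 36.8, 38.5 and 35.4 CPM at E14.5 and 68.9, 62.9, 57.5 and 58.2 CPM at E16.5 and rose by 1.68-fold (adjusted p = 1.85e-06). Pfkm and Eno3, the muscle forms of phosphofructokinase and enolase, rose from 266 ± 2.22 CPM (SD, n = 3) to 387 ± 21.3 CPM (SD, n = 4) and from 289 ± 7.41 CPM (SD, n = 3) to 529 ± 41.2 CPM (SD, n = 4). Ldhb, the heart lactate dehydrogenase, rose by 0.73 on the log2 scale. Gapdh was not called at 3659 ± 221 CPM at E14.5 and 4157 ± 294 CPM at E16.5. Of the 23 glycolysis genes 8 were higher and 2 lower, and the lower ones numbered 4 with library totals alone and 1 without E14.5 replicate 1 or 2 or E16.5 replicate 2 or 3.

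Creatine and oxygen storage genes rose in 7 of 8 cases with a median of 0.68. Beside the creatine kinases Ckmt2 and Ckm, the brain-type Ckb rose from 137 ± 8.77 CPM (SD, n = 3) to 214 ± 25.4 CPM (SD, n = 4). Slc6a8, the creatine transporter, and Ak1, adenylate kinase, rose by 0.60 and 0.68. Regulators of this metabolism changed in part: 6 of 15 were higher and 1 was lower (2 lower without E14.5 replicate 3 or E16.5 replicate 4, and 3 with library totals alone). Klf15, a Krüppel-like factor that glucocorticoids induce and that controls lipid use in heart, was at 8.24, 8.38 and 10.9 CPM at E14.5 and 38.5, 30.7, 27.3 and 35.4 CPM at E16.5 (log2 fold change 1.85 ± 0.16 (SE), adjusted p = 4.57e-07). Perm1, a muscle factor downstream of PGC-1 and ERR, was at 13.1, 12.45 and 13.9 CPM at E14.5 and 43.6, 45.5, 38.8 and 40.2 CPM at E16.5 (log2 fold change 1.68 ± 0.12 (SE), adjusted p = 8.05e-08). Esrra, the receptor ERR-alpha, rose from 101 ± 16.02 CPM (SD, n = 3) to 161 ± 27.2 CPM (SD, n = 4), Thra, the thyroid hormone receptor alpha, rose by 0.45, and Esrrb, ERR-beta, fell from 17.3 ± 0.661 CPM (SD, n = 3) to 13.1 ± 0.88 CPM (SD, n = 4).

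Genes of the glucocorticoid response rose in 10 of 21 cases and fell in 2, with a median of 0.54. Fkbp5, a chaperone of the glucocorticoid receptor and its classic target, was at 33.4, 34.1 and 35.4 CPM at E14.5 and 53.3, 48.7, 46.9 and 50.5 CPM at E16.5 (log2 fold change 0.54 ± 0.06 (SE), adjusted p = 8.39e-06). Zbtb16, a zinc finger factor that the hormone induces strongly, was at 2.42, 3.49 and 5.29 CPM at E14.5 and 18.9, 15.1, 13.4 and 11.6 CPM at E16.5 (log2 fold change 1.99 ± 0.22 (SE), adjusted p = 4.99e-06). Per1, which is both a clock gene and a hormone target, was at 34.0, 39.3 and 43.0 CPM at E14.5 and 92.8, 97.4, 81.7 and 76.9 CPM at E16.5 (log2 fold change 1.17 ± 0.12 (SE), adjusted p = 1.58e-06). Hsd11b2, which inactivates glucocorticoids, fell from 0.913 ± 0.434 CPM (SD, n = 3) to 0.248 ± 0.0817 CPM (SD, n = 4). Angptl4, an inhibitor of lipoprotein lipase, fell from 13.9 ± 1.76 CPM (SD, n = 3) to 8.57 ± 1.12 CPM (SD, n = 4). Nr3c1, the glucocorticoid receptor, Tsc22d3 and Dusp1 were among the 9 not called.

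Clock genes were higher in 8 of 16 cases and lower in none. Npas2, the partner of the clock activator BMAL1, was at 1.78, 1.92 and 2.02 CPM at E14.5 and 10.4, 9.58, 8.39 and 10.1 CPM at E16.5 (log2 fold change 2.33 ± 0.23 (SE), adjusted p = 1.09e-06). Nr1d1, the repressor REV-ERB-alpha, rose from 15.4 ± 0.28 CPM (SD, n = 3) to 24.7 ± 1.37 CPM (SD, n = 4), and Hlf, an output factor, rose from 15.5 ± 0.801 CPM (SD, n = 3) to 25.9 ± 0.854 CPM (SD, n = 4). Clock itself, Per3, Cry2 and Dbp were not called. The time of day at which embryos were taken is not given in the sources used here, and its part in these values was not tested. Among immediate early genes 5 of 18 were higher, 2 of them without E14.5 replicate 2 and 3 without E14.5 replicate 1, E16.5 replicate 1 or E16.5 replicate 4. Klf4 was at 18.5, 17.9 and 18.5 CPM at E14.5 and 38.1, 33.6, 39.2 and 41.9 CPM at E16.5 (log2 fold change 1.06 ± 0.10 (SE), adjusted p = 4.90e-07), and Nr4a1 rose from 18.6 ± 0.22 CPM (SD, n = 3) to 25.4 ± 3.87 CPM (SD, n = 4).

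Genes of the hypoxia response did not move as one. Egln3, a prolyl hydroxylase that HIF induces, was at 43.2, 37.7 and 31.5 CPM at E14.5 and 123, 85.5, 85.1 and 102 CPM at E16.5 (log2 fold change 1.40 ± 0.17 (SE), adjusted p = 2.69e-05). Ndrg1 rose from 37.9 ± 2.07 CPM (SD, n = 3) to 80.1 ± 16.6 CPM (SD, n = 4), Adm, the vessel-widening peptide adrenomedullin, rose from 8.24 ± 1.46 CPM (SD, n = 3) to 15.4 ± 2.51 CPM (SD, n = 4), and Egln1 rose by 0.43. Slc2a1, which belongs to the same list, fell. Of 16 genes 5 were higher and 2 lower. The falls numbered 1 without E14.5 replicate 1, 4 without E14.5 replicate 3 or E16.5 replicate 1, and 5 with library totals alone. Pdk1 was not called at 303 ± 18.1 CPM at E14.5 and 341 ± 24.2 CPM at E16.5.

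**Figure D4:**
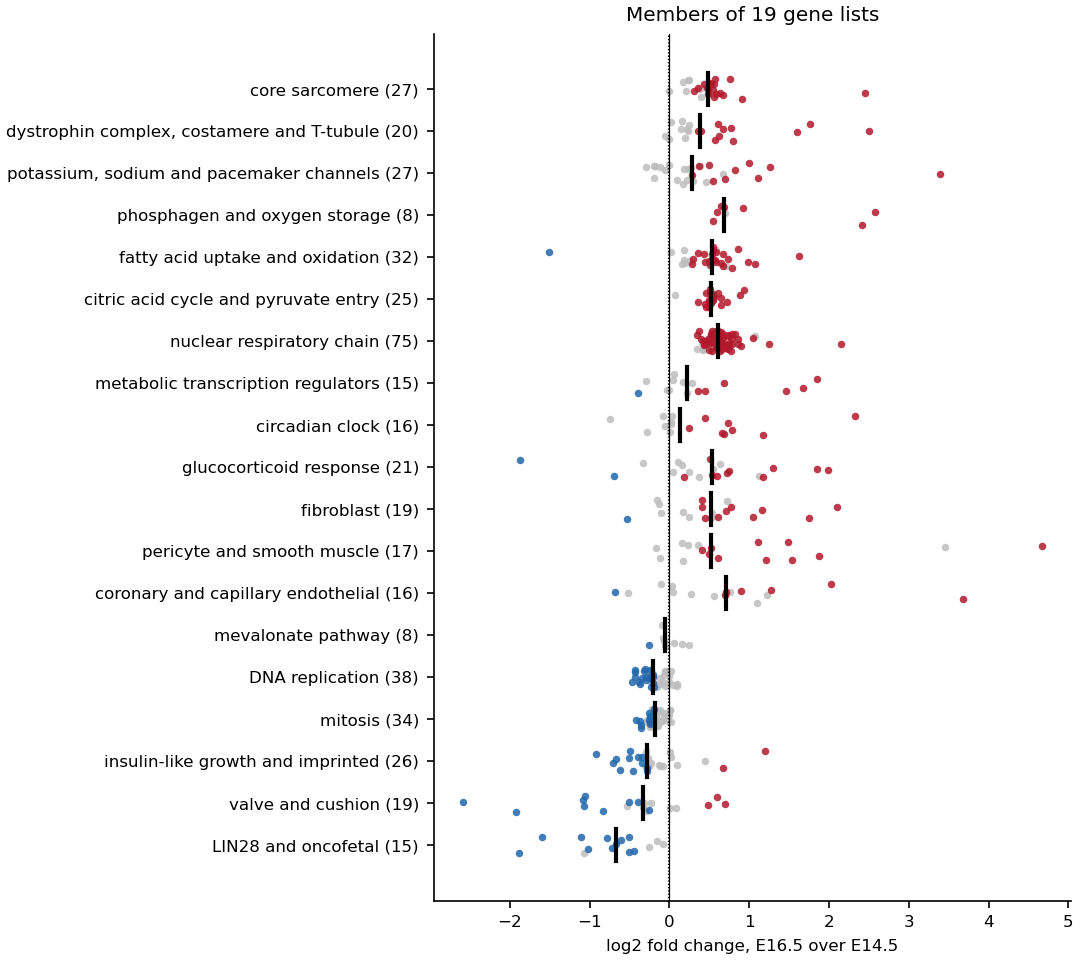
Log2 fold change (horizontal axis, E16.5 over E14.5) of the tested members of 19 gene lists, their number in brackets. Red points were called higher, blue points lower and grey points neither; thick lines are list medians, and the dotted line is the median of all genes, -0.02. The citric acid cycle and respiratory chain points cluster to the right with medians of 0.53 and 0.60, and the LIN28 list lies to the left with a median of -0.67.

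Part of the genes of cell division were lower, by small amounts. Of 38 DNA replication genes 19 were lower, none higher and 19 not called, with a median of -0.20, against 8.74% of all genes called lower. Mcm4, of the replicative helicase, was at 84.4, 88.0 and 79.8 CPM at E14.5 and 66.1, 66.7, 66.3 and 65.3 CPM at E16.5 (log2 fold change -0.35 ± 0.06 (SE), adjusted p = 0.000538). Tyms, thymidylate synthase, was at 28.8, 32.4 and 31.6 CPM at E14.5 and 23.0, 23.1, 23.4 and 22.6 CPM at E16.5 (log2 fold change -0.43 ± 0.07 (SE), adjusted p = 0.000151). Mcm10, which activates the helicase, fell from 19.2 ± 0.986 CPM (SD, n = 3) to 14.2 ± 1.10 CPM (SD, n = 4). Pcna, the sliding clamp, was not called at 219 ± 20.2 CPM at E14.5 and 222 ± 14.9 CPM at E16.5. The 19 calls fell to 11 without E14.5 replicate 1 or 2 and to 12 without E14.5 replicate 3.

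Mitotic genes were lower in 10 of 34 cases (median -0.18). Only 1 call was left without E14.5 replicate 1 and 1 without E14.5 replicate 2, 4 were left without E16.5 replicate 1 or 4, and 22 genes were called with library totals alone. Ccnb1, cyclin B1, stood at 143, 141 and 131 CPM at E14.5 and 98.4, 119, 105 and 110.2 CPM at E16.5 and fell by 1.28-fold (adjusted p = 0.00254). Top2a, the topoisomerase of condensing chromosomes, was not called at 287 ± 30.9 CPM at E14.5 and 243 ± 21.3 CPM at E16.5. Of 19 genes of the G1 phase 4 were lower, 1 of them without E14.5 replicate 1 or 2 and 2 without E16.5 replicate 2 or 4, and 9 with library totals alone. Cdk4, the kinase of the D cyclins, fell from 308 ± 2.31 CPM (SD, n = 3) to 253 ± 16.1 CPM (SD, n = 4), and Ccnd3 was not called at 377 ± 18.5 CPM at E14.5 and 357 ± 21.1 CPM at E16.5.

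Gins3 is shown with its sequence because the E2F motif, known for replication genes, and the CHR element, known for mitotic genes, lie close together in front of it. TTTCCCGC or TTTGGCGC on either strand was in 29.4% of 34 windows of the replication list (30 of 38 genes matched), against 1.56% of all windows and 2.57% of those of genes tested. The CHR letters TTTGAA were in 73.3% of 30 windows of the mitosis list (28 of 34 matched), against 17.9% of all windows. In the replication list the CHR letters were in 11.8% of the 34 windows, near the share in windows of genes tested. The E2F letters were in 0% of the mitosis windows. The stretch at chr8:95633513-95633542 (plus strand, GRCm38.p6) has the E2F letters, on the other strand, 41 to 34 bases before the RefSeq start and the CHR letters 28 to 23 bases before it, both in capitals.
Gins3: gcggcGCGGGAAAgcgagTTTGAAgccggc
Gins3, of the GINS complex that the helicase needs, was at 16.4, 13.2 and 14.6 CPM at E14.5 and 10.8, 9.84, 12.1 and 11.04 CPM at E16.5 (log2 fold change -0.43 ± 0.09 (SE), adjusted p = 0.00196).

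Inhibitors of the cell cycle did not move together. Cdkn1c, the imprinted inhibitor p57, was among the 5 largest falls in CPM under the same exclusions: it stood at 713, 684 and 674 CPM at E14.5 and 359, 366, 349.7 and 379.5 CPM at E16.5 (log2 fold change -0.92 ± 0.07 (SE), adjusted p = 8.05e-08). Cdkn2c, p18, rose from 41.5 ± 7.17 CPM (SD, n = 3) to 64.4 ± 6.85 CPM (SD, n = 4). Of 14 inhibitors 4 were higher and 1 lower, and 1 rise was left with library totals alone and 2 without E14.5 replicate 1 or 3 or E16.5 replicate 1 or 4.

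The LIN28 and oncofetal list had the largest share of falls among the pathway lists: 11 of 15 genes lower, none higher, median -0.67. LIN28 proteins block maturation of the let-7 microRNAs, and many genes of the list are let-7 targets. Hmga2, a chromatin protein of growing embryonic tissue, was at 45.8, 38.7 and 34.3 CPM at E14.5 and 12.7, 12.04, 12.2 and 15.6 CPM at E16.5 (log2 fold change -1.60 ± 0.10 (SE), adjusted p = 4.77e-09). Igf2bp1, an RNA-binding protein of embryonic cells, was at 75.04, 80.3 and 55.3 CPM at E14.5 and 43.1, 42.2, 40.2 and 38.6 CPM at E16.5 (log2 fold change -0.78 ± 0.10 (SE), adjusted p = 2.90e-05). Arid3a fell from 19.3 ± 3.63 CPM (SD, n = 3) to 9.52 ± 0.129 CPM (SD, n = 4), with E16.5 libraries close together, and Mycn, the MYC family member of the fetal heart, fell from 52.1 ± 2.39 CPM (SD, n = 3) to 32.8 ± 1.25 CPM (SD, n = 4). Hmga1 was not called at 126 ± 10.05 CPM at E14.5 and 113 ± 15.5 CPM at E16.5. The count stayed at 10 or 11 whichever library was left out.

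Growth factors of the insulin-like family and imprinted genes were lower in 12 of 26 cases and higher in 2 (1 without E14.5 replicate 1 or 2 or E16.5 replicate 1 or 4). Igf1 was at 99.4, 90.9 and 77.4 CPM at E14.5 and 56.8, 50.7, 66.5 and 50.3 CPM at E16.5 (log2 fold change -0.67 ± 0.13 (SE), adjusted p = 0.000934). Igf2, the main fetal growth factor of the family, was at 5364, 5779 and 6195 CPM at E14.5 and 4566, 4595, 4811 and 4983 CPM at E16.5 and lost its call without E14.5 replicate 2 (adjusted p = 0.0552) or 3 (adjusted p = 0.0721). H19, the non-coding neighbour of Igf2, fell from 11098 ± 362 CPM (SD, n = 3) to 8768 ± 455 CPM (SD, n = 4). Mest fell from 1832 ± 165 CPM (SD, n = 3) to 1293 ± 117 CPM (SD, n = 4), and Igfbp5 fell from 960.1 ± 110.3 CPM (SD, n = 3) to 679.9 ± 39.9 CPM (SD, n = 4). Igfbp7 went the other way, from 20.7 ± 3.71 CPM (SD, n = 3) to 47.6 ± 6.45 CPM (SD, n = 4). Among 24 ribosome biogenesis genes 4 were lower and none higher. They numbered 1 without E14.5 replicate 2 and 11 with library totals alone, and 2 genes were higher without E14.5 replicate 3. Npm1, nucleophosmin, fell from 664 ± 60.8 CPM (SD, n = 3) to 499 ± 27.7 CPM (SD, n = 4). Hnrnpa1, a splicing factor, had a log2 fold change of -0.48 ± 0.07. Npm1 and Hnrnpa1 have processed pseudogenes that could share reads with them. Of 14 regulators of muscle splicing 3 were higher and 3 lower. Rbm24, which drives cardiac exon inclusion, rose from 286 ± 12.7 CPM (SD, n = 3) to 364 ± 11.7 CPM (SD, n = 4), and Ptbp1, a repressor of muscle exons, fell from 205 ± 14.55 CPM (SD, n = 3) to 164 ± 4.15 CPM (SD, n = 4). The 3 rises became 1 without E14.5 replicate 1 and 1 with library totals alone.

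Regulators of the heart lineage moved singly. Hopx, a homeodomain-only factor that restrains cardiomyocyte growth, was at 179, 198 and 226 CPM at E14.5 and 366, 324, 302 and 359.6 CPM at E16.5 (log2 fold change 0.75 ± 0.10 (SE), adjusted p = 2.25e-05). Gata6 rose from 180.0 ± 23.3 CPM (SD, n = 3) to 261 ± 4.15 CPM (SD, n = 4), whereas Gata5, a family member of endocardium, fell from 22.1 ± 1.60 CPM (SD, n = 3) to 11.5 ± 1.95 CPM (SD, n = 4). Hand1 and Meis2 fell by 1.70-fold and 1.43-fold. Of 29 transcription factors 5 were higher and 4 lower, where 10.1% of all genes were higher and 8.74% lower. Tbx20 was not called at 430.3 ± 51.5 CPM at E14.5 and 373 ± 26.4 CPM at E16.5. The rises of these factors numbered 3 without E14.5 replicate 1 or 2 or E16.5 replicate 1 or 3. Their falls numbered 7 when the 7 libraries were fitted alone and 9 with library totals alone. Among trabecular and secreted genes, Nppb, the natriuretic peptide BNP, was at 113, 165 and 161 CPM at E14.5 and 313, 248, 227 and 285 CPM at E16.5 (log2 fold change 0.88 ± 0.21 (SE), adjusted p = 0.00702), and Bmp10 rose from 131 ± 9.33 CPM (SD, n = 3) to 187 ± 10.52 CPM (SD, n = 4). Nppa, the atrial peptide, was not called at 1757 ± 5.85 CPM at E14.5 and 2159.7 ± 271 CPM at E16.5. Nrg1, the endocardial growth signal for trabeculae, fell from 5.62 ± 0.499 CPM (SD, n = 3) to 3.62 ± 0.445 CPM (SD, n = 4), Cited1 fell by 1.39-fold, and Ednrb, an endothelin receptor, fell from 165 ± 31.9 CPM (SD, n = 3) to 101 ± 3.04 CPM (SD, n = 4). Ankrd1, a stretch-responsive gene that is also a YAP target, rose from 852 ± 35.8 CPM (SD, n = 3) to 1159 ± 72.1 CPM (SD, n = 4), while Amot, a binding partner of YAP, fell from 25.03 ± 3.89 CPM (SD, n = 3) to 13.4 ± 0.97 CPM (SD, n = 4).

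The valve and cushion list was lower in 9 of 19 cases and higher in 3 (median -0.34). The rises numbered 0 without E14.5 replicate 2, 1 without E14.5 replicate 1 or E16.5 replicate 1 or 4, and 1 with library totals alone. These genes mark the gelatinous matrix that early valves are built from. Hapln1, which links hyaluronan to versican, was at 53.4, 39.6 and 29.2 CPM at E14.5 and 9.92, 7.58, 14.6 and 10.8 CPM at E16.5 (log2 fold change -1.92 ± 0.18 (SE), adjusted p = 2.39e-06). Vcan, versican, was at 273, 267 and 169 CPM at E14.5 and 131, 159, 134 and 109 CPM at E16.5, with E14.5 replicate 3 below the other libraries of its age (log2 fold change -0.83 ± 0.17 (SE), adjusted p = 0.00315). In Hapln1, Vcan and Col2a1 alike, E14.5 replicate 3 was the E14.5 library nearest to E16.5. Has2, the hyaluronan synthase, fell from 7.10 ± 2.28 CPM (SD, n = 3) to 3.40 ± 0.607 CPM (SD, n = 4), and Twist1 and Msx2, factors of cushion mesenchyme, fell by 2.12-fold and 2.07-fold. Gfra1, a receptor for GDNF, and Edil3, an integrin ligand, both outside the list, fell with log2 fold changes of -1.81 and -1.29.

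Collagen chains moved both ways. Of 26 chains 12 were higher and 9 lower, and with library totals alone 6 were higher. Among the lower ones were chains known from cartilage. Col2a1, the main one, stood at 37.99, 37.0 and 24.2 CPM at E14.5 and 4.45, 6.13, 6.20 and 5.14 CPM at E16.5 (log2 fold change -2.59 ± 0.17 (SE), adjusted p = 8.05e-08). Col9a1, Col9a2 and, outside the list, Col9a3, which coat type II fibrils, had log2 fold changes of -1.54, -1.13 and -1.45. A list of cartilage, airway and oesophagus markers summed to 19.02 to 36.4 CPM at E14.5 and 20.8 to 29.0 CPM at E16.5, with 5 of 9 markers tested and Col9a1 the one called, and the part of such tissue in these values was not tested. Col13a1, a membrane collagen, fell from 27.9 ± 2.31 CPM (SD, n = 3) to 11.998 ± 1.48 CPM (SD, n = 4), and Col26a1 fell from 46.4 ± 1.35 CPM (SD, n = 3) to 21.6 ± 1.88 CPM (SD, n = 4). Among the higher ones were chains of loose connective tissue. Col6a2 was at 139, 155 and 158 CPM at E14.5 and 315, 319, 304 and 253 CPM at E16.5 (log2 fold change 0.98 ± 0.09 (SE), adjusted p = 6.57e-07), Col6a1 rose from 138 ± 7.55 CPM (SD, n = 3) to 238 ± 35.2 CPM (SD, n = 4), and Col14a1, which binds the surface of type I fibrils, rose from 49.1 ± 4.76 CPM (SD, n = 3) to 99.3 ± 12.1 CPM (SD, n = 4). Col5a3 stood at 0.698 ± 0.311 CPM at E14.5 and 5.29 ± 1.49 CPM at E16.5.

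Fibroblast markers rose in 10 of 19 cases and fell in 1 (median 0.52), and their sum went from 4218 to 4552 CPM at E14.5 to 5545 to 6791 CPM at E16.5. Dpt, dermatopontin, a matrix protein of fibroblasts, was at 24.4, 25.96 and 29.5 CPM at E14.5 and 130.3, 93.7, 126 and 106 CPM at E16.5 (log2 fold change 2.10 ± 0.31 (SE), adjusted p = 0.000285). Dpep1, a membrane peptidase, rose from 3.11 ± 0.461 CPM (SD, n = 3) to 10.47 ± 1.98 CPM (SD, n = 4), and Gsn, gelsolin, rose from 203 ± 8.94 CPM (SD, n = 3) to 309.8 ± 31.1 CPM (SD, n = 4). Pdgfra, the growth factor receptor of the lineage, was the marker that fell, at 84.9 ± 14.503 CPM at E14.5 and 58.6 ± 8.53 CPM at E16.5, and it lost its call without E14.5 replicate 1 (adjusted p = 0.141), without E14.5 replicate 2 (adjusted p = 0.0822) and in 3 other alternatives. Other matrix lists had calls in both directions. Of 25 proteoglycan and matricellular genes 5 were higher, 4 lower and 16 not called. Of 21 elastic fibre and cross-linking genes 2 were higher, 2 lower and 17 not called, which is near the shares of all genes (10.1% higher, 8.74% lower). The rises of these lists numbered 8 and 4 with limma-voom, and the falls of the elastic fibre list 5 with library totals alone. Those that rose included Aspn, asporin, from 21.3 ± 2.15 CPM (SD, n = 3) to 65.3 ± 9.93 CPM (SD, n = 4), Sparcl1 from 137 ± 10.6 CPM (SD, n = 3) to 292 ± 23.7 CPM (SD, n = 4), Tnxb, tenascin X, from 27.0 ± 3.87 CPM (SD, n = 3) to 53.2 ± 5.69 CPM (SD, n = 4), and Ltbp4, of elastic fibres, from 194 ± 13.2 CPM (SD, n = 3) to 300.3 ± 25.4 CPM (SD, n = 4). Ltbp1 and Thbs1 fell by 1.66-fold and 1.73-fold. Eln, elastin, was not called: it stood at 1656, 1641 and 1232 CPM at E14.5 and 2209, 1703, 1451 and 989 CPM at E16.5.

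Coronary and capillary endothelial genes were higher in 6 of 16 cases and lower in 1, with a median of 0.70. Gpihbp1, which anchors lipoprotein lipase in capillaries, was at 4.998, 6.24 and 8.62 CPM at E14.5 and 27.6, 23.5, 24.7 and 31.7 CPM at E16.5 (log2 fold change 2.02 ± 0.19 (SE), adjusted p = 6.53e-07). Aqp1, the water channel of capillaries, was at 62.9, 61.7 and 70.6 CPM at E14.5 and 122, 98.7, 135 and 130.1 CPM at E16.5 (log2 fold change 0.90 ± 0.10 (SE), adjusted p = 6.54e-06). Aplnr, the apelin receptor of coronary sprouts, rose from 30.2 ± 4.80 CPM (SD, n = 3) to 49.2 ± 7.14 CPM (SD, n = 4), while Apln was not called at 26.6 ± 3.89 CPM at E14.5 and 27.4 ± 1.51 CPM at E16.5. Bmx, a kinase of arterial endothelium, fell from 14.8 ± 1.23 CPM (SD, n = 3) to 9.22 ± 0.768 CPM (SD, n = 4). Fabp4, the fatty acid carrier of capillaries, was at 68.3, 72.4 and 88.4 CPM at E14.5 and 198, 160.3, 178 and 174 CPM at E16.5, with no overlap between the ages, but was not called (log2 fold change 1.22 ± 0.47, adjusted p = 0.0914). It was called by limma-voom (adjusted p = 0.00254), with the 7 libraries fitted alone (adjusted p = 3.33e-06) and without the 5 libraries of the earlier ages (adjusted p = 4.31e-07). Of 15 general endothelial markers 6 were higher and 1 lower (3 higher without E14.5 replicate 2, and none lower without E14.5 replicate 1), and their sum went from 1389 to 1475 CPM at E14.5 to 1521 to 1575 CPM at E16.5. Cldn5, of endothelial tight junctions, rose from 19.2 ± 4.22 CPM (SD, n = 3) to 39.1 ± 6.57 CPM (SD, n = 4), and Sox17, an arterial factor, rose from 12.7 ± 4.34 CPM (SD, n = 3) to 21.1 ± 0.465 CPM (SD, n = 4). Lyve1, of lymphatic vessels and some macrophages, was at 7.30, 8.07 and 8.68 CPM at E14.5 and 27.3, 21.9, 26.9 and 22.4 CPM at E16.5 (log2 fold change 1.62 ± 0.17 (SE), adjusted p = 2.65e-06), whereas Ackr3, a scavenger of the chemokine CXCL12, fell from 54.8 ± 5.96 CPM (SD, n = 3) to 36.7 ± 2.57 CPM (SD, n = 4).

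Markers of the cells around vessels were higher in part. Of 17 pericyte and smooth muscle genes 10 were higher and none lower (median 0.52), and 6 were higher without E14.5 replicate 1. Tagln and Cnn1, smooth muscle genes counted above with the early isoforms, fell. Kcnj8, a potassium channel of pericytes, was at 11.04, 12.2 and 15.5 CPM at E14.5 and 28.5, 23.6, 28.5 and 31.1 CPM at E16.5 (log2 fold change 1.11 ± 0.14 (SE), adjusted p = 2.28e-05). Aoc3, an amine oxidase of smooth muscle, was at 7.44, 9.57 and 12.1 CPM at E14.5 and 40.1, 38.2, 35.3 and 28.4 CPM at E16.5 (log2 fold change 1.88 ± 0.23 (SE), adjusted p = 2.45e-05), and Ndufa4l2 rose from 10.98 ± 1.87 CPM (SD, n = 3) to 31.7 ± 6.08 CPM (SD, n = 4). Des, desmin, which heart muscle shares, rose from 500.4 ± 14.995 CPM (SD, n = 3) to 708 ± 72.0 CPM (SD, n = 4). In the epicardium, the outer cell layer, 2 of 16 genes were higher and 1 lower (0 lower without E14.5 replicate 1 or E16.5 replicate 1 or 2, and 2 without E14.5 replicate 3 or E16.5 replicate 4). These counts are near the shares of all genes (10.1% higher, 8.74% lower). Msln, mesothelin, was at 24.4, 29.2 and 27.5 CPM at E14.5 and 60.7, 50.3, 57.4 and 62.2 CPM at E16.5 (log2 fold change 1.09 ± 0.15 (SE), adjusted p = 4.24e-05), and Upk3b was not called at 129 ± 7.66 CPM at E14.5 and 136 ± 29.0 CPM at E16.5. Of 18 neuronal genes 1 was lower and none higher, and 6 were higher when the 7 libraries were fitted alone.

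Blood cell genes moved both ways. The primitive globins of yolk sac red cells were lower in 3 of 3 cases. Of these Hbb-bh1 (log2 fold change -2.57, adjusted p = 0.0263) lost its call in 8 of the 17 alternatives that tested it. Its adjusted p was 0.115 without E14.5 replicate 1 and 0.0787 without E14.5 replicate 2. Hbb-y stood at 4522, 2640.2 and 612 CPM at E14.5 and 15.5, 63.9, 54.5 and 97.8 CPM at E16.5, with a wide spread between the E14.5 libraries (log2 fold change -5.48 ± 0.70 (SE), adjusted p = 0.000117). Hba-x stood at 802, 591 and 158 CPM at E14.5 and 15.6, 24.7, 31.0 and 57.0 CPM at E16.5 (log2 fold change -4.01 ± 0.61 (SE), adjusted p = 0.000501). Hsd3b6, an enzyme of steroid synthesis, had the same order of the E14.5 libraries, at 30.8, 14.8 and 4.17 CPM at E14.5 and 0.672, 1.16, 2.13 and 1.37 CPM at E16.5 (log2 fold change -3.64 ± 0.57 (SE), adjusted p = 0.000548). The adult globins summed to 4098 to 10027 CPM at E14.5 and 10392 to 22875 CPM at E16.5. Among them Hbb-bs was at 3493, 2202 and 1662 CPM at E14.5 and 6391, 4899, 10716 and 7229 CPM at E16.5 and was not called (adjusted p = 0.212). Of 13 other red cell genes 3 were higher and 2 lower, 1 was higher without E14.5 replicate 1 or 2, and 1 was lower without E14.5 replicate 1 or E16.5 replicate 1, 2 or 4. Of 12 megakaryocyte genes 2 were lower and none higher, with 0 lower without E14.5 replicate 1, 1 without E14.5 replicate 2 or E16.5 replicate 2 or 4, and 4 when the 7 libraries were fitted alone. Adult globin genes are near-identical in pairs, and counting may have split or dropped their reads. Blood held in the dissected heart was not measured apart, and its part in these values was not tested.

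White blood cell markers split. Of 14 neutrophil and mast cell genes 10 passed the filter on low counts, and of these 6 were higher and none lower. With the stricter filter 0 were higher, and genes low at E14.5 can pass the main filter through their E16.5 libraries alone. The list summed to 5.59 to 7.06 CPM at E14.5 and 19.1 to 34.0 CPM at E16.5. An exact permutation test over 35 relabellings of the libraries gave p = 0.0286, the smallest it can give. Adjusted over 25 such library measures this was 0.0595, a value shared by the cardiomyocyte, fibroblast and macrophage sums among others. Tpsb2, a mast cell tryptase, was at 0.237, 0.268 and 0.529 CPM at E14.5 and 8.45, 5.71, 5.24 and 6.48 CPM at E16.5 (log2 fold change 4.25 ± 0.46 (SE), adjusted p = 3.61e-06). Cma1, a mast cell chymase, was at 0.782, 0.425 and 0.716 CPM at E14.5 and 5.02, 3.93, 3.52 and 4.17 CPM at E16.5 (log2 fold change 2.70 ± 0.32 (SE), adjusted p = 2.71e-05). Ngp, a neutrophil granule protein, stood at 0.304 ± 0.101 CPM at E14.5 and 1.79 ± 0.859 CPM at E16.5. The 18 macrophage genes had 1 higher and 1 lower (median -0.32), with 6 lower when the 7 libraries were fitted alone, and their sum was 314 to 377 CPM at E14.5 and 220 to 300 CPM at E16.5. Cx3cr1, a receptor of yolk sac derived macrophages, fell from 13.2 ± 1.16 CPM (SD, n = 3) to 8.93 ± 0.82 CPM (SD, n = 4). Of 18 complement and antigen presentation genes 4 were higher (1 with the stricter filter) and none lower, mostly from low levels. C1s1 stood at 0.246 ± 0.0876 CPM at E14.5 and 1.89 ± 0.335 CPM at E16.5, C1ra at 0.412 ± 0.0756 CPM at E14.5 and 1.85 ± 0.425 CPM at E16.5, and Serping1, the C1 inhibitor, rose from 17.0 ± 1.45 CPM (SD, n = 3) to 22.5 ± 1.14 CPM (SD, n = 4).

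The mevalonate pathway, which supplies isoprenoids for cholesterol and for the lipid anchors of proteins, gave 1 call over this interval. Of 8 genes tested none was higher and 1 was lower (8.74% of all genes were lower), with a median log2 fold change of -0.06. The gene called was Acat2, the thiolase at the start of the pathway, at 21.6, 20.6 and 18.2 CPM at E14.5 and 16.002, 16.3, 15.8 and 19.6 CPM at E16.5 (adjusted p = 0.0401), and 9 of the 18 alternatives ended that call, leaving out E14.5 replicate 1 among them (adjusted p = 0.191). Hmgcs1, the synthase of the second step, was not called at 121 ± 14.1 CPM at E14.5 and 135 ± 14.2 CPM at E16.5 (log2 fold change 0.16 ± 0.09). The kinases Mvk and Pmvk had log2 fold changes of 0.24 ± 0.11 and -0.07 ± 0.11. Mvd, the decarboxylase, had 0.05 ± 0.10, and Idi1, the isomerase, -0.09 ± 0.09. The prenyl synthases Fdps and Ggps1 had -0.05 ± 0.12 and -0.08 ± 0.09. In the interval before, from E12.5 to E14.5, 6 of the 8 were called lower. That comparison shares the E14.5 libraries with this one, and the share of all genes lower in it is not given here. A test of the difference between the 2 steps passed in 0 of the 8 genes. In the cholesterol branch 2 of 17 genes were higher and 2 lower, near the shares of all genes (10.1% higher, 8.74% lower). The falls numbered 1 without E14.5 replicate 1 or 2 or E16.5 replicate 1 or 2, as did the rises without E14.5 replicate 2 or 3 or E16.5 replicate 3 or 4. There Sc5d, a late enzyme of cholesterol synthesis, fell from 34.2 ± 1.76 CPM (SD, n = 3) to 26.1 ± 1.33 CPM (SD, n = 4). In protein prenylation and related chains 3 of 12 were higher (1 with library totals alone), among them Pdss1, which builds the tail of coenzyme Q and rose from 20.8 ± 1.46 CPM (SD, n = 3) to 26.9 ± 2.93 CPM (SD, n = 4).

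Whether the step from E14.5 to E16.5 differed from the step from E12.5 to E14.5 was tested gene by gene in the same fit. The difference of the steps passed in 281 genes (1.49%), 200 with a more positive second step (1.06%) and 81 with a more negative one (0.429%). That count rests on the E14.5 libraries, which enter both steps: without E14.5 replicate 1 it was 43 and 14, and without E14.5 replicate 2 it was 22 and 13. Ckmt2 had the smallest p of the positive genes, with 5.76 ± 0.651, 7.69 ± 0.587 and 46.0 ± 3.57 CPM at E12.5, E14.5 and E16.5 (n = 4, 3 and 4), and a difference of steps of 2.16 ± 0.20 (SE), adjusted p = 2.79e-05 on the log2 scale. Tppp3, a tubulin-binding protein, stood at 7.04 ± 0.422, 6.91 ± 1.08 and 20.7 ± 1.74 CPM and had a difference of 1.61 ± 0.22 (SE), adjusted p = 0.000989. Fkbp5 stood at 42.1 ± 1.88, 34.3 ± 1.03 and 49.8 ± 2.73 CPM, lowest at E14.5 (difference 0.83 ± 0.11 (SE), adjusted p = 0.000989).

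Other positive genes were highest at E12.5 and were not called from E14.5 to E16.5. Abcb10, a mitochondrial transporter of red cell precursors, stood at 95.1 ± 15.2, 44.2 ± 1.96 and 51.2 ± 1.43 CPM (difference 1.32 ± 0.18 (SE), adjusted p = 0.00101), and Bcl2l1, a survival factor of red cell precursors, at 118 ± 20.6, 52.1 ± 2.82 and 63.6 ± 6.12 CPM. Dyrk3, a kinase also found in that lineage, had a difference of 2.46 ± 0.33 (SE), adjusted p = 0.000989. Among the negative genes Tnnt1 stood at 202 ± 18.99, 266 ± 11.97 and 90.0 ± 17.5 CPM, highest at E14.5 (difference -1.96 ± 0.20 (SE), adjusted p = 9.99e-05). Col26a1 stood at 45.5 ± 3.67, 46.4 ± 1.35 and 21.6 ± 1.88 CPM, with its drop in the second step (difference -1.13 ± 0.16 (SE), adjusted p = 0.00177). In the remaining ones the earlier step was the larger. Angptl4 stood at 7.99 ± 1.09, 13.9 ± 1.76 and 8.57 ± 1.12 CPM, Igfbp3, a binding protein for insulin-like growth factors, at 35.9 ± 5.30, 78.3 ± 7.93 and 64.2 ± 2.56 CPM, and Apln, the apelin peptide, at 7.32 ± 0.75, 26.6 ± 3.89 and 27.4 ± 1.51 CPM. Cd109, a membrane protein that restrains TGF-beta signals, stood at 4.86 ± 0.788, 14.95 ± 2.54 and 15.4 ± 2.08 CPM, and its difference lost its call without E14.5 replicate 1 (adjusted p = 0.0779).

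Mitochondrial genes supplied part of the positive set. In the citric acid cycle list 3 of 25 genes were called higher from E12.5 to E14.5 and 24 from E14.5 to E16.5, and the difference of the steps passed in 7. In the nuclear respiratory chain list the counts were 2 and 61 of 75, and the difference passed in 4. Mdh2 stood at 468 ± 30.0, 461 ± 22.0 and 725 ± 45.5 CPM, with a difference of 0.67 ± 0.12 (SE), adjusted p = 0.00965, and without E14.5 replicate 1 or 2 it was not called (adjusted p = 0.0749 and 0.0792). Uqcrc1 stood at 379.8 ± 26.8, 378 ± 39.9 and 626 ± 53.9 CPM, with a difference of 0.74 ± 0.14 (SE), adjusted p = 0.0137, and lost its call in the same 2 cases (adjusted p = 0.0952 and 0.139).

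**Figure D5:**
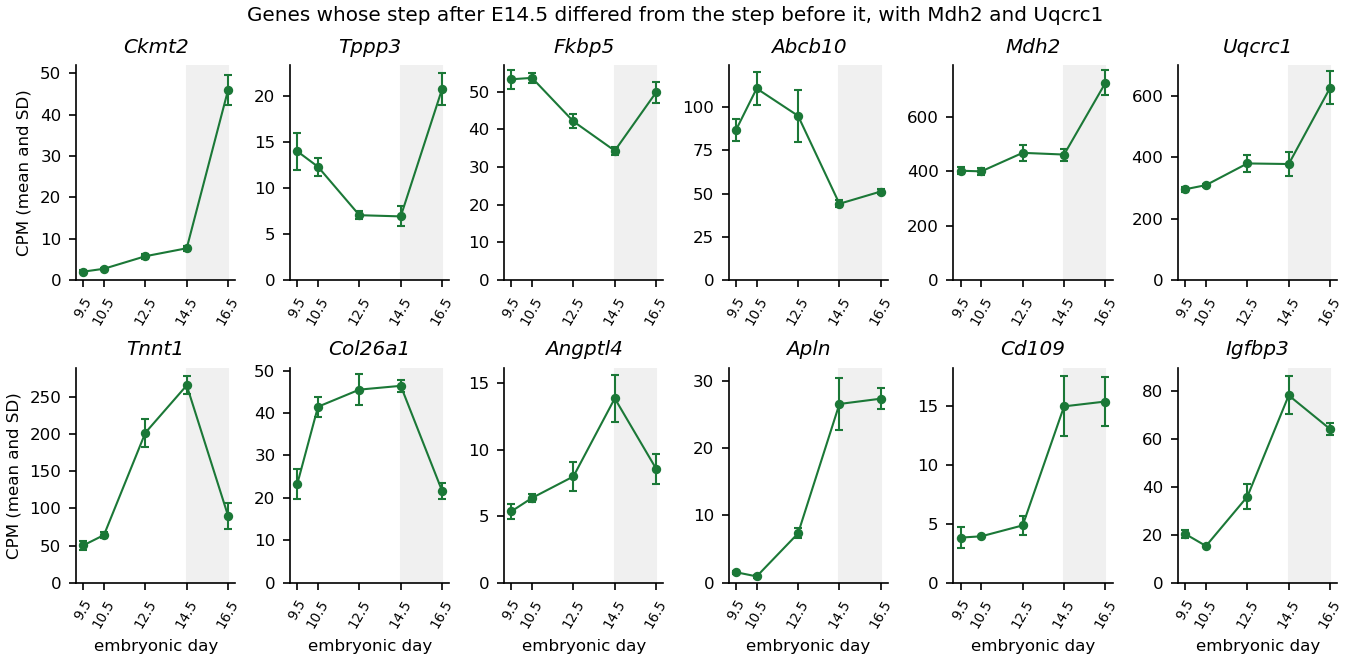
CPM (vertical linear axes, mean and SD) of 12 genes at the 5 ages (horizontal axis, embryonic day; n = 3, 4, 4, 3 and 4), with the interval from E14.5 to E16.5 shaded. Ckmt2 and Tppp3 rise within the shaded interval, to means of 46.0 and 20.7 CPM, while Tnnt1 and Col26a1 fall, to means of 90.0 and 21.6 CPM.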

How the data were processed

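Total RNA of dissected embryonic hearts was sequenced as standard Illumina libraries, per the labels' protocols. The submitters' processing notes list GRCm38/mm10, Trimmomatic 0.36, STAR 2.5.2b, featureCounts and Subread 1.5.2. The deposited values are raw counts per gene, with 49315 identifiers, of which 48970 carried a symbol. Neither the strand setting nor the gene annotation release is stated by the labels, so reads of overlapping antisense genes cannot be told apart.

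All 18 libraries were fitted together in edgeR 4.0.16 (R 4.3.3), with filterByExpr by stage, TMM scaling and a robust quasi-likelihood test, so the 5 stages share 1 estimate of the spread. The contrast was E16.5 (4) minus E14.5 (3), and a further contrast subtracted the step from E12.5 to E14.5. CPM used the TMM-scaled library totals, which for the 7 libraries compared were 30744015 to 42298365 counts before scaling. P-values were adjusted by Benjamini-Hochberg over all genes, and those of the exact permutation test over 25 library measures. The procedure was tested on simulated data. Alternatives were DESeq2 1.42.0, limma 3.58.1 (voom), other scalings and filters, thinning, fewer libraries and a replicate block.

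The comparison and the 60 gene lists were chosen with earlier results of these data known. Named genes were the 10 largest rises and falls by fold with a mean of at least 10 CPM and no overlap, the 5 largest rises and falls in CPM, up to 4 called members a list and direction by p with its most abundant member, the mevalonate list, and 6 genes a direction for the difference of steps. Mitochondrial, ribosomal protein, haemoglobin, predicted and non-coding genes were left out of the first sets. Cox8b, Cox6a2, Cox7a1, Myoz2, Cycs and genes named without values as not called were chosen after their values were seen. A few members of the lists count in the totals and are not reported here by name. Promoter windows of 300 bases came from RefSeq (GRCm38.p6).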

Additional observations from a re-analysis of the deposited data

Results flagged for a closer look

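In a group of 4 libraries a value was singled out where the gap between the highest or lowest library and its neighbour was too large a share of the group's whole range (Dixon's test, 95% critical value). Of 265 groups tested 15 were singled out, and chance alone gives about 1 in 20. At E16.5 the sum of the coronary and capillary endothelial markers was 463 CPM in replicate 2 and 543 to 547 CPM in the other 3 (gap 0.949 of the range). Replicate 2 was also low for Sln, at 159 CPM against 265 to 277 CPM (0.902), for Adm, at 11.7 against 16.3 to 16.9 CPM (0.899), and for Apln, at 25.1 against 27.9 to 28.4 CPM (0.858). It was high for Nrap, at 351 against 276 to 285 CPM (0.878), and for Ctnna1, at 597 against 543 to 549 CPM (0.879). Replicate 4 was high for Cdkn2c, at 74.6 against 60.4 to 61.5 CPM (0.919), Mest, at 1468 against 1222 to 1254 CPM (0.872), Acat2, at 19.6 against 15.8 to 16.3 CPM (0.865), and Mvk, at 24.6 against 17.1 to 18.4 CPM (0.831). It was low for Col6a1, at 185 against 252 to 258 CPM (0.913), Hnrnpa1, at 647 against 682 to 687 CPM (0.871), and Tnni2, at 4.66 against 4.78 to 4.80 CPM (0.857). Replicate 3 was high for Nrg1, at 4.29 against 3.36 to 3.46 CPM (0.897). At E12.5 replicate 4 was high for Apln, at 8.45 against 6.89 to 6.99 CPM (0.936).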

How the results depend on the processing

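The 1911 higher and 1651 lower genes stayed within 1.5 times in the alternatives run, with these exceptions. Scaling by library totals alone gave 1222 higher and 3776 lower genes and, for the difference of the steps, 101 positive and 310 negative genes in place of 200 and 81. Leaving out 1 library gave 1213 to 1976 higher and 825 to 1873 lower genes, and 22 to 219 positive and 13 to 78 negative differences of steps, the lowest without E14.5 replicate 1 or 2. For the difference of the steps DESeq2 gave 562 positive and 193 negative genes, limma-voom gave 164 negative genes, and dropping 5 libraries of the earlier ages gave 159 negative genes. The cause of these shifts was not tested. With the replicate number as a block 1668 genes were higher and 1437 lower, and 126 positive and 40 negative differences of steps were left. The deviations of same-numbered libraries from their stage means correlated at -0.013, -0.022 and -0.106 across genes, which are not independent replicates. Those of differently numbered libraries correlated at -0.114 to 0.116. Whether same-numbered libraries share a litter or batch was not tested. No gene called and named here changed sign in an alternative, while genes not called with fold changes near 0, among them Clock, Pcna and Eln, did. Some genes named as not called passed in an alternative: Hbb-bs (adjusted p = 0.0408), Nppa (0.0322), Hcn2 (0.0446), Dusp1 (0.0495), Abcb10 (0.0492) and Bcl2l1 (0.0256) with the 7 libraries fitted alone, Ccnd3 (0.0322), Ctnnb1 (0.0480), Hmga1 (0.0298), Tbx20 (0.0141), Top2a (0.0152) and Per3 (0.00875) with library totals alone, and Gapdh (0.0330) with DESeq2. On simulated counts with 18526 genes the test recovered 38% of 1.5-fold, 58% of 2-fold, 90% of 4-fold and 94% of 8-fold changes. Each share rests on 50 changed genes, and small changes were missed more often than large ones. Far fewer genes were changed there than the 3562 called here, which affects the adjustment of p, so these shares may not carry over.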

Other observations

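Small sets of genes from other tissues also moved. Of 14 fat cell genes 8 passed the filter on low counts, and of these 3 were higher (0 with the stricter filter) and none lower. Plin5, a coat protein of lipid droplets that oxidative muscle shares, was at 0.355, 0.335 and 0.467 CPM at E14.5 and 2.11, 2.41, 2.31 and 3.06 CPM at E16.5 (log2 fold change 2.68 ± 0.33 (SE), adjusted p = 1.22e-05). Cidea, a lipid droplet protein of brown fat, was at 1.80, 2.97 and 3.08 CPM at E14.5 and 8.23, 8.27, 7.19 and 10.03 CPM at E16.5, and Ebf2, a factor of brown fat precursors, rose from 2.25 ± 0.443 CPM (SD, n = 3) to 6.74 ± 0.781 CPM (SD, n = 4). The sum of the fat list was 61.3 to 67.7 CPM at E14.5 and 74.7 to 83.2 CPM at E16.5. Myh8, the perinatal myosin of skeletal muscle, was at 2.79, 2.64 and 2.21 CPM at E14.5 and 12.3, 11.1, 12.8 and 10.6 CPM at E16.5 (log2 fold change 2.20 ± 0.22 (SE), adjusted p = 1.05e-06), whereas 3 of the 10 skeletal muscle genes tested were lower (1 without E14.5 replicate 1 or 2). Of 5 liver genes tested 1 was higher and 1 lower, with a median log2 fold change of -0.13. The higher one, Ahsg, a plasma protein made by liver, rose from 2.33 ± 1.09 CPM (SD, n = 3) to 11.9 ± 2.92 CPM (SD, n = 4). The lower one, Apob (log2 fold change -3.47, adjusted p = 0.0477), lost its call in 7 of the 16 alternatives that tested it. Lck, a T cell kinase, fell from 2.86 ± 0.234 CPM (SD, n = 3) to 1.51 ± 0.403 CPM (SD, n = 4).

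The E16.5 libraries also differed in how near they stood to E14.5. Over the 3562 genes called, E16.5 replicate 3 was the E16.5 library nearest to the E14.5 mean in 1379 genes, replicate 2 in 984, replicate 1 in 612 and replicate 4 in 587.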
